A study of Drosophila melanogaster with 16 samples.

Results

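The genes described here are 10 genes of ecdysone and juvenile hormone signalling, of 16680 genes in the count table. They are the ecdysone receptor subunits EcR and usp, the ecdysone importer Oatp74D, the ecdysone response genes Eip74EF, Eip75B, br and Hr38, the juvenile hormone receptors Met and gce, and the juvenile hormone target Kr-h1. They were chosen by name for their place in the pathways. The choice also drew on earlier results of the same counts, in which Oatp74D and gce were higher in females, so every female-male difference below is a description with no test. The genotype tests of Oatp74D and gce use the libraries that entered this choice, so their p-values are not independent of it.

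RNA from dissected midguts of Drosophila melanogaster was sequenced in 16 libraries, each from 30 pooled guts. Virgin females and virgin males were sampled in 2 genotypes, with 4 libraries in each of the 4 groups (replicates 1 to 4 female controls, 5 to 8 male controls, 9 to 12 females labelled Myc RNAi, 13 to 16 males labelled Myc RNAi). The controls are labelled w1118; mex1-GAL4 TS/+, and the other genotype mex1TS > MycRNAi GD1419, so the driver, which is active in enterocytes, the absorptive cells of the gut, is named for both. No age or temperature is given in the sources used here, a single RNAi line was used, and the labels name no control that carries another RNAi construct.

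Ecdysone is the steroid hormone of insects. It enters cells through the importer Oatp74D and binds a heterodimer of the nuclear receptors EcR and Usp, which switches on early response genes such as Eip74EF, Eip75B and br. Juvenile hormone is a sesquiterpenoid that binds the related bHLH-PAS proteins Met and Gce, whose best-known target is Kr-h1. In the adult gut both hormones are known from mated females, in which they promote gut growth, and all flies here were virgin.

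Total counts ranged from 16630050 to 53586401 per library. Myc itself (listed as dm) was at 60.5 to 126.5 CPM (read counts scaled to library size with TMM factors) in female controls and 43.7 to 83.7 CPM in females labelled Myc RNAi, and at 19.8 to 34.0 and 30.6 to 60.2 CPM in the male groups. Its log2 fold change was −0.59 in females (SE 0.26, edgeR adjusted p = 0.0892) and 0.65 in males (SE 0.26, edgeR adjusted p = 0.0619). The male libraries thus went against their label on this measure, and the groups are called "labelled Myc RNAi". All 11 enterocyte markers were detected in every group. Male replicate 16 held 28892 reads of 12 testis germline genes, against 155 to 259 in the other 3 libraries of its group. Without it the same numbers of members were called in males, 4 higher and 2 lower, with log2 fold changes of 0.78 for Eip74EF, −1.04 for gce and −1.40 for Kr-h1, and those of EcR, usp and br are given beside their results.

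The 2 genotypes differed in parts of both pathways. In females labelled Myc RNAi EcR, usp and Eip74EF were higher than in controls and Oatp74D and gce were lower. In males EcR, usp, Eip74EF and br were higher, and gce and Kr-h1 were lower. A difference was called when p, adjusted over all 9314 tested genes in the edgeR quasi-likelihood fit, was below 0.05. By that rule 3 of 10 members were higher and 2 lower in females, where 18.5% of all tested genes were higher and 17.6% lower. In males 4 were higher and 2 lower, against 21.7% and 17.7% of all genes. The choice of Oatp74D and gce, the 2 lower in females, drew on the same female controls. Neither those 2 falls nor that of gce in males is independent of the choice. With only 10 members, such counts are no result about the set, and the values of the single genes follow. The median log2 fold change of the members was −0.10 in females and 0.055 in males, beside −0.0002 and 0.049 over all tested genes. Libraries of the genotypes did not overlap for 5 members in females and 3 in males, where this held for 37.3% and 34.9% of all tested genes. All 10 members passed the filter on low counts.

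**Figure D1:**
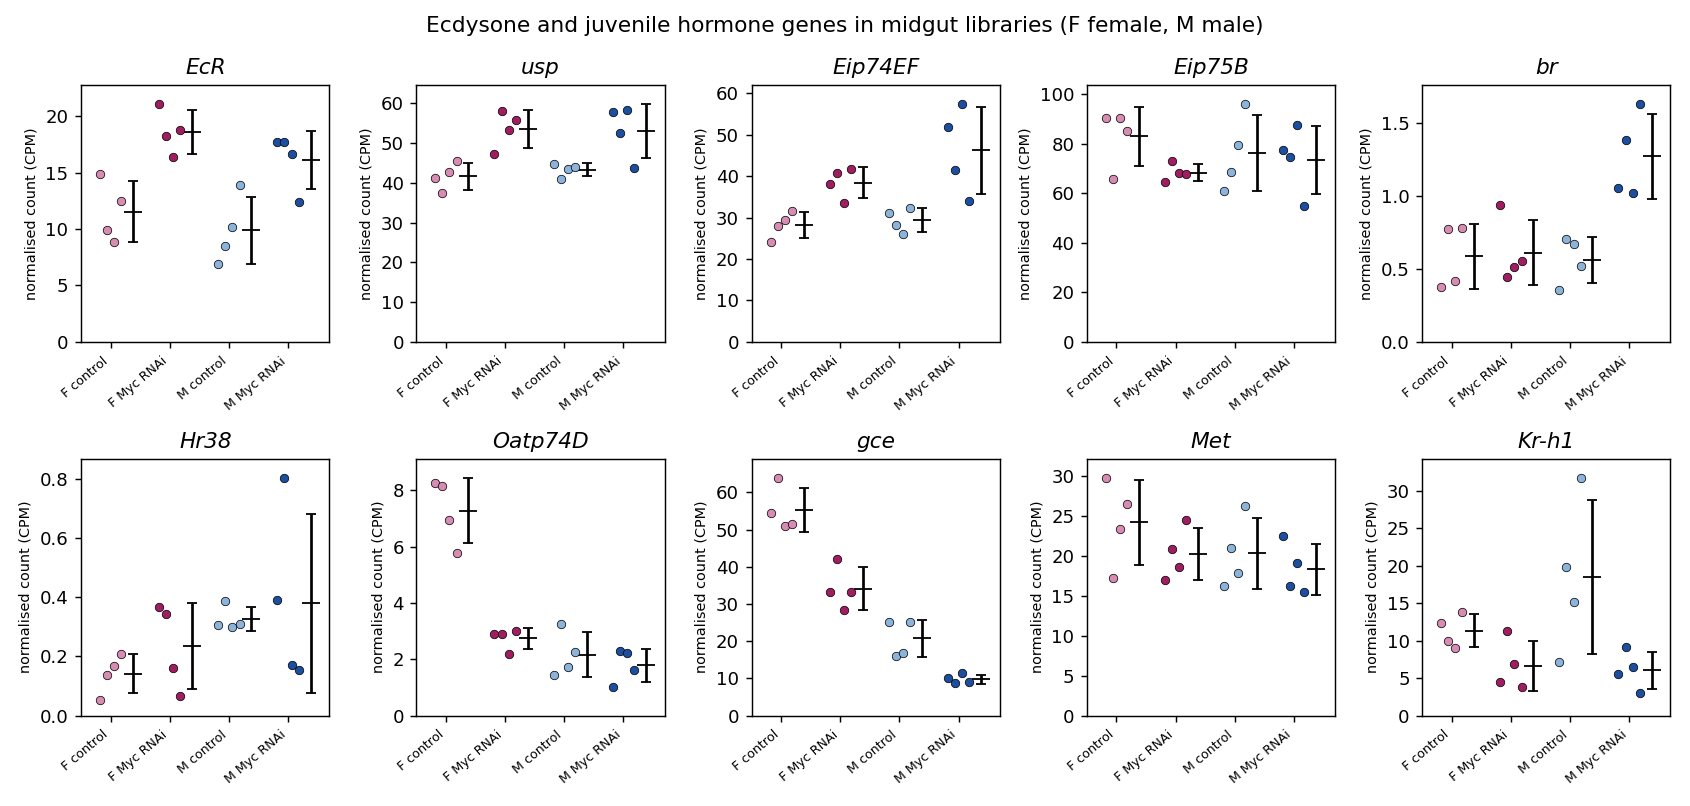
Normalised counts (CPM, y axis from 0 in each panel) of the 10 genes in the 16 libraries, grouped by sex and genotype on the x axis; points are libraries, and the horizontal mark with bars is the mean ± SD of 4. EcR, usp and Eip74EF sit higher on average in the libraries labelled Myc RNAi, though in males EcR and usp of replicate 16 overlap the controls. In these libraries gce sits lower in both sexes, and Oatp74D stands out in the 4 female controls.

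Levels were first set in order within each group, per kilobase of exon, since counts of genes of different length cannot be compared. usp was the most abundant member per length in all 4 groups, with 13.7 ± 1.12 CPM per kb in female controls and 14.2 ± 0.532 in male controls (SD, n = 4). In female controls gce came next with 8.77 to 11.01 CPM per kb, below every usp value and above Eip75B at 4.87 to 6.73, with no overlap on either side. Met (3.40 to 5.86 CPM per kb) overlapped Eip75B. In male controls gce was at 2.76 to 4.32 CPM per kb, a range that overlapped that of Met (3.18 to 5.18) and lay within that of Kr-h1 (1.35 to 5.98). The places of Kr-h1 and gce in this order are uncertain. Of the 5306 exon bases of Kr-h1 4168 are shared with CG45075. Of the 5809 exon bases of gce 2197 are shared with the antisense gene CR44961. The assignment of reads in shared exons is not known. EcR, the hormone-binding subunit, was at 1.16 ± 0.274 CPM per kb in female controls and 0.994 ± 0.303 in male controls, far below its partner usp. br and Hr38 were at the bottom in all 4 groups, between 0.0183 and 0.0629 CPM per kb on average, and rest on few reads.

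EcR encodes the ecdysone-binding nuclear receptor (FBgn0000546, chromosome 2R, 6087873 to 6169087, BDGP6 assembly). It was at 14.9, 9.94, 8.80 and 12.5 CPM in female controls and at 21.1, 18.3, 16.4 and 18.8 CPM in females labelled Myc RNAi. All 4 of the latter lay above all 4 controls, and the rise was 1.62-fold (log2 fold change 0.69 with SE 0.20, edgeR adjusted p = 0.0131). In males EcR was at 6.93, 8.48, 10.2 and 13.9 CPM in controls and at 17.8, 17.7, 16.6 and 12.4 CPM in the other genotype. Replicate 16 (12.4) fell below the highest control, so the male groups overlapped, while the mean rise was again 1.62-fold (0.70, SE 0.20, edgeR adjusted p = 0.0117) and 0.81 on the log2 scale without replicate 16. The female call ended without replicate 2 (log2 fold change 0.59, edgeR adjusted p = 0.0519) and the male call without replicate 5 (0.51, edgeR adjusted p = 0.0551). Replicates 2 and 5 had the lowest TMM factors of the 16 libraries, 0.691 and 0.703.

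usp encodes the partner subunit of the receptor, the fly orthologue of the retinoid X receptors (FBgn0003964, chromosome X, 2038798 to 2042311). Its level was 41.2, 37.3, 42.6 and 45.5 CPM in female controls and 47.2, 58.1, 53.2 and 55.7 CPM in females labelled Myc RNAi. The 2 groups did not overlap, with a rise of 1.29-fold (log2 fold change 0.36 with SE 0.11, edgeR adjusted p = 0.0148). In males usp was at 44.6, 41.0, 43.5 and 44.1 CPM in controls, the tightest group of all, and at 57.8, 52.5, 58.2 and 43.6 CPM in males labelled Myc RNAi. Of these, replicate 16 alone lay within the range of the controls (log2 fold change 0.29 with SE 0.11, edgeR adjusted p = 0.0411). The usp call in males was fragile: it ended in 13 of the 16 fits that left out 1 library (edgeR adjusted p up to 0.126), and held without replicate 9, 10 or 16. It was stronger without replicate 16 (0.38, edgeR adjusted p = 0.00634). The male call also ended with RLE factors (edgeR adjusted p = 0.0658), with no filter on low counts (0.063) and with males fitted alone (0.11). The female call of usp ended without replicate 2 (edgeR adjusted p = 0.0758) or 10 (0.0505). Exons of usp share 265 of 3038 bases with Actn on the same strand, and Actn had similar mean levels in both genotypes, 51.3 and 48.9 CPM in females and 42.6 and 42.8 CPM in males.

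The receptor subunits were also compared within libraries, which needs no scaling between them. The ratio of EcR to usp, in reads per kb, was 0.0848 ± 0.0196 in the control females and 0.107 ± 0.0198 in the other females. In the male groups it was 0.0698 ± 0.0205 and 0.0928 ± 0.00759 (SD, n = 4). The ranges of the genotypes overlapped in both sexes, so a shift in the balance of the subunits was not separated from the spread of the libraries.

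Markers of gut progenitor cells were higher in the same libraries. For comparison, 18.5% of all tested genes rose and 17.6% fell in females, and 21.7% and 17.7% in males. Of 10 tested stem cell and enteroblast markers (11 listed) 10 rose in females and 6 in males, and their summed level was 107.2 to 203.7 CPM in female controls, 259.6 to 355 CPM in females labelled Myc RNAi, 148.9 to 190.2 CPM in male controls and 311 to 439 CPM in the other males. These sums did not overlap between genotypes in either sex, and E(spl)m8-HLH was the marker at 0 in male controls. The summed level of 11 enterocyte markers was 30480 to 75890 CPM in female controls and 16720 to 19860 CPM in females labelled Myc RNAi, and 33020 to 65410 and 18690 to 22360 CPM in the male groups, also without overlap. The single enterocyte markers went both ways, with 4 higher and 3 lower of 11 in each sex. The part of either marker list in the results for EcR, usp and the other members was not tested. In these whole-gut libraries fewer cells of a type and less RNA per cell cannot be told apart.

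Oatp74D encodes the transporter that carries ecdysone into cells (FBgn0036732, chromosome 3L, 17487118 to 17511693). In female controls it was at 8.24, 8.16, 6.94 and 5.77 CPM, from 111 to 179 reads per library. Females labelled Myc RNAi had 2.88, 2.90, 2.20 and 2.99 CPM, so all 4 lay below all controls. It fell 2.66-fold (log2 fold change −1.41 with SE 0.28, edgeR adjusted p = 0.000811) and the call held in each of the 16 fits that left out 1 library, with values from −1.56 to −1.32. The female controls in this test also entered the choice of Oatp74D as higher in females. The p-value and the left-out fits are therefore not independent of that choice. Male controls were at 1.43, 3.24, 1.74 and 2.26 CPM and males labelled Myc RNAi at 1.01, 2.28, 2.20 and 1.63 CPM. These male groups overlapped throughout, and the log2 fold change of −0.29, with SE 0.28 and edgeR adjusted p = 0.456, did not pass the test and turned to 0.18 with total-count scaling. Oatp74D in females labelled Myc RNAi, at 2.20 to 2.99 CPM, thus lay in the range of the male controls, at 1.43 to 3.24 CPM. In control libraries the mean of 7.28 ± 1.17 CPM in females stood beside 2.17 ± 0.793 CPM in males, a difference of 1.74 on the log2 scale, and in the other genotype 2.74 ± 0.366 stood beside 1.78 ± 0.588 CPM, a difference of 0.62 with overlapping libraries. The female-minus-male difference of the genotype effects was −1.12 (SE 0.39), given without a test because Oatp74D was chosen for a sex difference.

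Other members of the same transporter family, organic anion transporting polypeptides, did not share one direction. Of 6 tested genes 1 rose and 1 fell in females, and 1 rose and 3 fell in males. Over all tested genes 18.5% rose and 17.6% fell in females, and 21.7% and 17.7% in males. Nothing is read from counts on so short a list. Oatp33Eb rose in both sexes (log2 fold change 0.64 with SE 0.15, edgeR adjusted p = 0.0035 in females and 0.67, SE 0.15, edgeR adjusted p = 0.00213 in males). Oatp58Da fell from 26.8 to 13.9 CPM in females, and in males from 26.3 to 6.43 CPM (−0.95 and −2.04, SE 0.17 in each; edgeR adjusted p = 0.000321 and 2.03e-07). With total-count scaling the female fall of Oatp58Da no longer passed (edgeR adjusted p = 0.0562). The summed level of 7 Malpighian tubule markers was 179.3 to 280 CPM in male controls and 59.2 to 116.8 CPM in males labelled Myc RNAi, and 78.6 to 118.5 and 58.5 to 144.1 CPM in the female groups. Whether tubule tissue bears on these transporter values was not tested. Oatp33Ea and Oatp30B fell in males (−0.74 and −0.66), calls that ended when total counts set the scaling (edgeR adjusted p of 0.26 and 0.579), and in females they were at −0.49 and 0.43 without passing the test.

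Among the early response genes, Eip74EF rose in both sexes. It encodes an ETS transcription factor (FBgn0000567, chromosome 3L, 17558672 to 17619325). Levels were 24.2, 27.9, 29.3 and 31.6 CPM in female controls and 38.1, 40.6, 33.4 and 41.6 CPM in females labelled Myc RNAi, with no overlap. The rise was 1.36-fold (log2 fold change 0.44 with SE 0.15, edgeR adjusted p = 0.0264), and the female call of Eip74EF ended in 5 fits, without replicate 1, 2, 9, 10 or 12 (the highest edgeR adjusted p was 0.0913). In males the controls had 31.1, 28.1, 25.97 and 32.3 CPM and the other genotype 51.9, 41.5, 57.4 and 33.98 CPM. All 4 male libraries labelled Myc RNAi were above all controls, the lowest being replicate 16. The rise in males was 1.57-fold (0.65, SE 0.15, edgeR adjusted p = 0.00199) and no left-out library ended it.

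Eip75B, a nuclear receptor gene that is induced by ecdysone and had the highest count of the 10 members (FBgn0000568, chromosome 3L, 17950953 to 18064696), did not pass the test in either sex. Female controls were at 90.2, 65.5, 90.5 and 85.3 CPM and females labelled Myc RNAi at 64.4, 72.8, 68.3 and 67.8 CPM. Replicate 2 was the only control within the range of the other group, and the log2 fold change was −0.28 (with SE 0.16, edgeR adjusted p = 0.201). Male controls spread from 60.8 to 96.0 CPM and males labelled Myc RNAi from 54.6 to 87.4 CPM, which overlapped widely (−0.05, SE 0.16, edgeR adjusted p = 0.833). The sign of Eip75B in both sexes changed with total-count scaling, to 0.13 and 0.40.

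br encodes the BTB zinc finger factors of the Broad complex (FBgn0283451, chromosome X, 1575132 to 1664869). It was nearly silent in the midgut, with 7 to 84 reads per library. In male controls it had 0.357, 0.704, 0.668 and 0.518 CPM, and in males labelled Myc RNAi 1.05, 1.39, 1.02 and 1.63 CPM. These male groups did not overlap and br rose 2.25-fold (log2 fold change 1.17 with SE 0.35, edgeR adjusted p = 0.0148). Replicate 16, the library with testis reads, had the highest value, and without it the log2 fold change was 1.02 (edgeR adjusted p = 0.0373). The br call in males ended without replicate 5 (0.97, edgeR adjusted p = 0.0554) and with no filter on low counts (1.16, edgeR adjusted p = 0.0744). Female libraries spanned 0.372 to 0.780 CPM in controls and 0.442 to 0.937 CPM in the other genotype (log2 fold change 0.064 with SE 0.37, edgeR adjusted p = 0.917). The genotype effect on br differed between the sexes by −1.10 (female minus male, SE 0.51), which did not pass the adjusted test (unadjusted p = 0.0453, edgeR adjusted p = 0.401). Hr38, an orphan nuclear receptor of the NR4A type that also pairs with Usp, had 1 to 18 reads per library. Its values, from 0.0532 to 0.804 CPM over all libraries, overlapped between genotypes in both sexes (0.66, SE 0.65 in females and 0.16, SE 0.57 in males; edgeR adjusted p = 0.48 and 0.852). A change in Hr38 was not detectable at this depth.

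**Figure D2:**
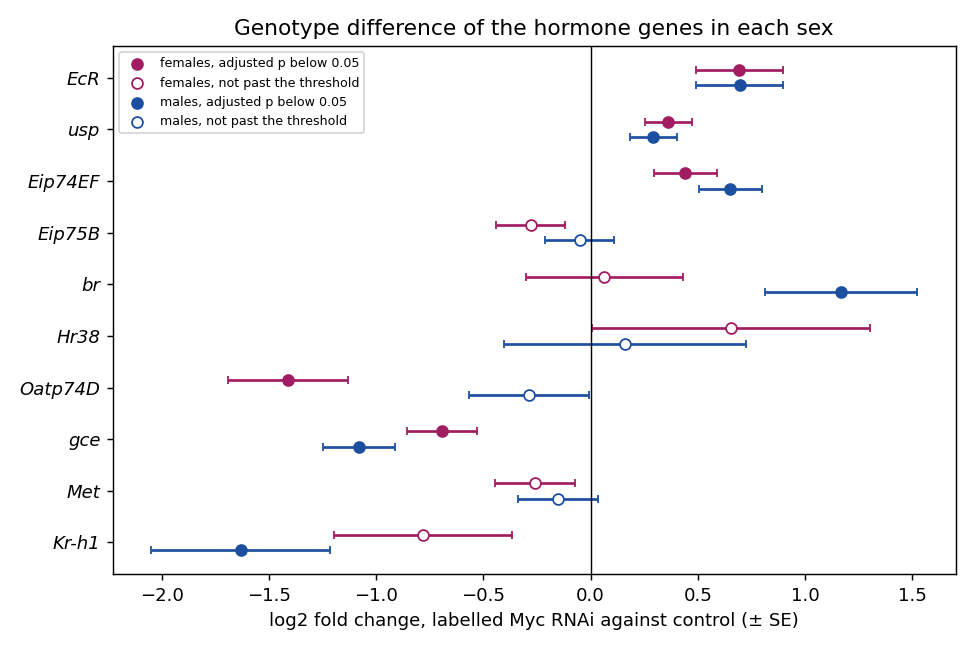
Log2 fold change (x axis, bars are ± SE from the edgeR fit) of each gene in libraries labelled Myc RNAi against controls, for females and males; filled points have an adjusted p below 0.05. EcR, usp and Eip74EF lie to the right and gce to the left in both sexes, while Oatp74D passes in females and br and Kr-h1 pass in males.

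The juvenile hormone receptor gene gce (FBgn0261703, chromosome X, 15297766 to 15319074) fell in both sexes. Female controls had 54.4, 64.0, 51.0 and 51.6 CPM and females labelled Myc RNAi 33.1, 42.1, 28.3 and 33.2 CPM. No library overlapped, and the fall was 1.62-fold (log2 fold change −0.69 with SE 0.16, edgeR adjusted p = 0.00295). With total-count scaling, under which the median of all genes moved to 0.43 in females, the gce value in females was −0.25 and no longer passed (edgeR adjusted p = 0.265). Male controls were at 25.1, 16.04, 16.8 and 25.1 CPM and males labelled Myc RNAi at 10.1, 8.67, 11.4 and 9.10 CPM. These groups did not overlap either, and gce fell 2.11-fold in males (−1.08, SE 0.17, edgeR adjusted p = 7.27e-05). With total-count scaling the male value was −0.60 and still passed (edgeR adjusted p = 0.0092). No left-out library ended the call in either sex. As with Oatp74D, these tests share libraries with the choice of gce and are not independent of it. Every female library was above every male library of its genotype, by 1.41 on the log2 scale in controls and 1.80 in the other genotype. The lowest female library labelled Myc RNAi, at 28.3 CPM, was above the highest male control, at 25.1 CPM. The genotype effects of gce differed by 0.39 (female minus male, SE 0.23), also given without a test.

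The annotation places antisense RNAs over gce, and the strand setting of the counting is not given in the sources used here. The antisense gene CR44961 covers 2197 of 5809 exon bases of gce and had 0 to 1 read per library. CR44429, which shares 167 of those bases, had 6 to 59 reads, and its mean was 1.32 and 0.518 CPM in the female groups and 1.62 and 0.235 CPM in the male groups. It too was lower in both sexes in the libraries labelled Myc RNAi.

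Met, the paralogue that is largely redundant with gce as a hormone receptor (FBgn0002723, chromosome X, 11616124 to 11621280), did not pass the test. Female controls had 29.8, 17.3, 23.4 and 26.5 CPM and females labelled Myc RNAi 16.97, 20.9, 18.6 and 24.6 CPM, with wide overlap (log2 fold change −0.26 with SE 0.19, edgeR adjusted p = 0.312). In males the ranges were 16.2 to 26.3 and 15.4 to 22.6 CPM (−0.15, SE 0.19, edgeR adjusted p = 0.557). Both signs turned with total-count scaling, to 0.14 and 0.29. Sex means of Met were close in controls, at 24.3 ± 5.34 CPM in females and 20.4 ± 4.45 CPM in males.

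The balance of the receptor paralogues was then read within each library. The ratio of gce to Met, in reads per kb, was 1.60, 3.24, 1.91 and 1.71 in female controls. Females labelled Myc RNAi had ratios of 1.71, 1.76, 1.33 and 1.18. It was 1.36, 0.669, 0.822 and 0.835 in male controls and 0.394, 0.466, 0.520 and 0.516 in males labelled Myc RNAi. With length taken over all exon bases, gce exceeded Met in all 8 female libraries. Met exceeded gce in 3 of 4 male controls and in all 4 males labelled Myc RNAi. The antisense gene CR44961 covers 2197 of the 5809 exon bases of gce. Which of gce and Met is higher within a library can therefore depend on how reads there were assigned. Between genotypes the male ratios did not overlap and the female ratios did, with replicates 1 and 4 inside the range of the other genotype. No test was run on the ratio. Since gce was chosen as higher in females, the difference of the ratio between the sexes is not independent of that choice.

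**Figure D3:**
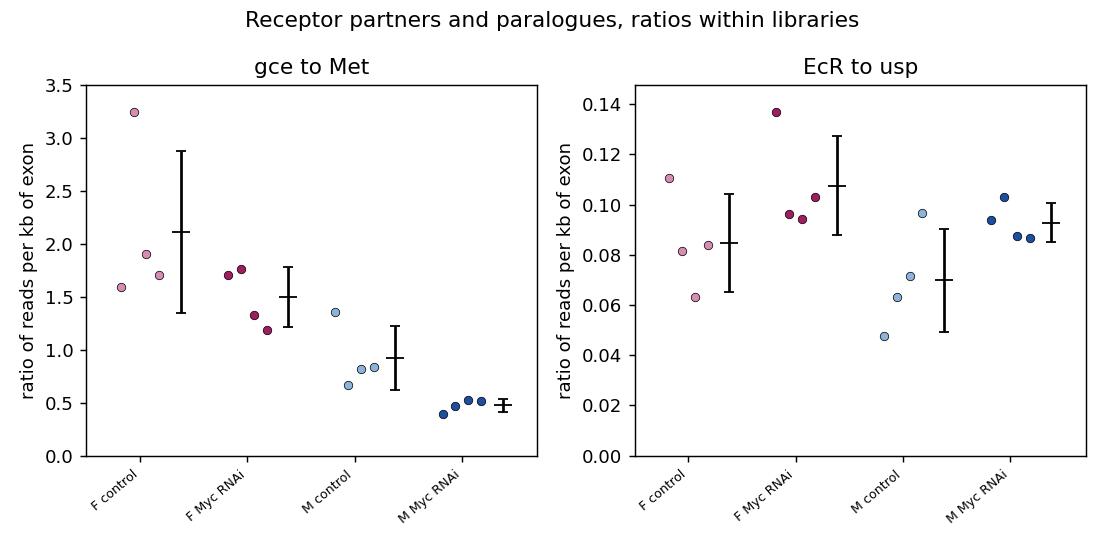
Ratio of gce to Met (left) and of EcR to usp (right) in each library, in reads per kb of exon, by sex and genotype; bars are the mean ± SD of 4 libraries. The gce to Met ratio is 1.60 to 3.24 in female controls and 1.18 to 1.76 in females labelled Myc RNAi, which overlap. In males it is 0.669 to 1.36 in controls and 0.394 to 0.520 in the other genotype. The EcR to usp ratios of the groups overlap.

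Kr-h1, the zinc finger gene through which juvenile hormone holds back metamorphosis (FBgn0266450, chromosome 2L, 6082603 to 6096498), varied widely between libraries of a group. Male controls were at 7.18, 19.8, 15.1 and 31.7 CPM and males labelled Myc RNAi at 5.50, 9.11, 6.44 and 3.05 CPM. Replicate 5 was low among the controls, at the level of the other genotype, so the groups overlapped, and Kr-h1 fell 3.1-fold on average (log2 fold change −1.63 with SE 0.42, edgeR adjusted p = 0.00497). The male call of Kr-h1 held in every fit that left out 1 library, with values from −1.95 to −1.23, the latter without the highest control. Female controls had 12.4, 9.89, 9.05 and 13.8 CPM and females labelled Myc RNAi 4.42, 11.3, 6.85 and 3.84 CPM. Only replicate 10 lay among the controls, and the log2 fold change was −0.78, with SE 0.41 and edgeR adjusted p = 0.161. Leaving out that library moved it to −1.15 (edgeR adjusted p = 0.0481), the only left-out fit in which Kr-h1 passed in females. Over the left-out fits the edgeR adjusted p went up to 0.348. Exons of Kr-h1 share 4168 of 5306 bases with CG45075 on the same strand, which is listed at 0 in all 16 libraries, so the level of Kr-h1 depends on how reads in shared exons were assigned.

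Whether the genotype effects differed between the sexes was tested for the 8 members not chosen for a sex difference. None passed (edgeR; 1 of 8, br, had an unadjusted p below 0.05, and DESeq2 also called 0), where 1.07% of all tested genes passed. The values ranged from −1.10 for br to 0.85 for Kr-h1 (SE 0.58), and EcR was at −0.002 (SE 0.28). The genotype effects on br and Kr-h1, called in males only, are therefore not shown to differ between the sexes, and for Oatp74D, called in females only, the difference was not tested.

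Female-minus-male differences of the other members were small in most cases. In controls the libraries of the sexes did not overlap for gce and Oatp74D, higher in females, and for Hr38, which was lower in females with 1 to 4 reads per library. In libraries labelled Myc RNAi they did not overlap for gce and for br, at 0.611 CPM in females and 1.27 CPM in males. Non-overlap in either direction was found in 14.3% of all tested genes in controls and 13.5% in the other genotype, and nothing is read from these counts. Mean levels of usp were 41.6 and 43.3 CPM in female and male controls, and those of Eip74EF 28.3 and 29.4 CPM.

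**Figure D4:**
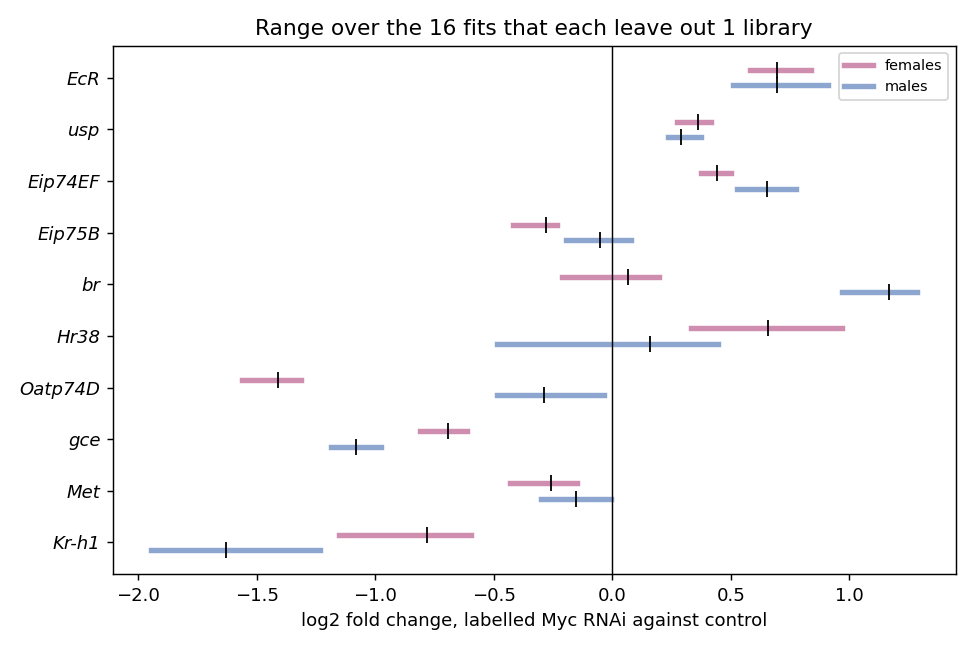
Range of the log2 fold change (x axis) of each gene over the 16 fits that each leave out 1 library, for females and males; the vertical tick is the value with all libraries. The ranges of EcR, usp, Eip74EF, gce and Kr-h1 stay on one side of 0 in both sexes, and those of br in females and of Eip75B and Hr38 in males cross it.

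The genes that make and break down the hormones were examined next. Of 13 ecdysone synthesis genes 7 had enough reads to be tested. shd, which encodes the hydroxylase that converts ecdysone to its active form in peripheral tissues, fell 7.06-fold in females, from 4.79, 3.92, 2.87 and 2.50 CPM to 0.335, 0.442, 0.770 and 0.390 CPM (log2 fold change −2.82 with SE 0.49, edgeR adjusted p = 0.000294). In males shd fell from 1.83, 1.23, 0.634 and 1.28 CPM to 0.390, 0.0447, 0.305 and 0.582 CPM (−1.83, SE 0.50, edgeR adjusted p = 0.00711). In both sexes all 4 libraries labelled Myc RNAi lay below all controls. These libraries held 9 to 48 reads of shd in females and 1 to 30 in males, so the sizes of the falls are uncertain. Npc1a, which moves sterols out of endosomes and supplies steroid synthesis, rose from 54.1 ± 6.45 to 102.2 ± 7.68 CPM in females, and in males from 55.1 ± 9.82 to 117.7 ± 15.6 CPM (0.92 and 1.09, SE 0.14 in each; edgeR adjusted p = 0.000101 and 1.36e-05). The zinc finger gene mld, a regulator of steroid synthesis genes, rose in males (0.67, SE 0.19, edgeR adjusted p = 0.0111) and was at 0.44 in females without passing (edgeR adjusted p = 0.0921). The other zinc finger regulator ouib did not pass in either sex (0.77 and 0.56).

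Ecdysone turnover followed. Eo, the ecdysone oxidase gene, fell in both sexes, from 7.29, 5.47, 4.69 and 4.99 CPM in female controls to 0.402, 0.590, 1.28 and 0.520 CPM in females labelled Myc RNAi. The female fall was 7.72-fold (log2 fold change −2.95 with SE 0.38, edgeR adjusted p = 1.82e-05). In males it went from 5.86, 11.5, 9.08 and 9.72 CPM to 0.585, 0.268, 0.170 and 0.310 CPM, a 27.1-fold fall (−4.76, SE 0.42, edgeR adjusted p = 2.44e-07). Libraries labelled Myc RNAi held 12 to 80 reads of Eo in females and 5 to 16 in males, so the sizes of these falls are uncertain. Cyp18a1, which encodes the other inactivating enzyme of the list, had at most 56 reads and did not pass (−1.08 and −0.79).

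Juvenile hormone epoxide hydrolases open the epoxide ring of the hormone and inactivate it. Over all tested genes 17.6% fell in females and 17.7% in males, and libraries did not overlap in either direction for 37.3% and 34.9%. All 3 hydrolase genes, Jheh1, Jheh2 and Jheh3, fell in both sexes, and no library overlapped between genotypes. Jheh3, the most abundant, was at 465, 693, 399 and 335 CPM in female controls and at 199.1, 157.5, 218 and 184.2 CPM in females labelled Myc RNAi (log2 fold change −1.32 with SE 0.19, edgeR adjusted p = 5.09e-05). In males Jheh3 went from 545, 566, 499.9 and 480.5 CPM to 198.2, 232.9, 170.8 and 209.5 CPM (−1.37, SE 0.19, edgeR adjusted p = 2.53e-05). Jheh1 fell by 1.30 in females and 1.04 in males on the log2 scale, and Jheh2 by 0.91 and 1.21. The esterase genes Jhe and Jhedup were not tested, with no more than 12 reads in any library. On the synthesis side Hmgs and qm rose in males (0.38 and 0.40), calls that ended without 8 and 5 of the libraries in turn, and Fpps did not pass in either sex (0.30 and −0.16).

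**Figure D5:**
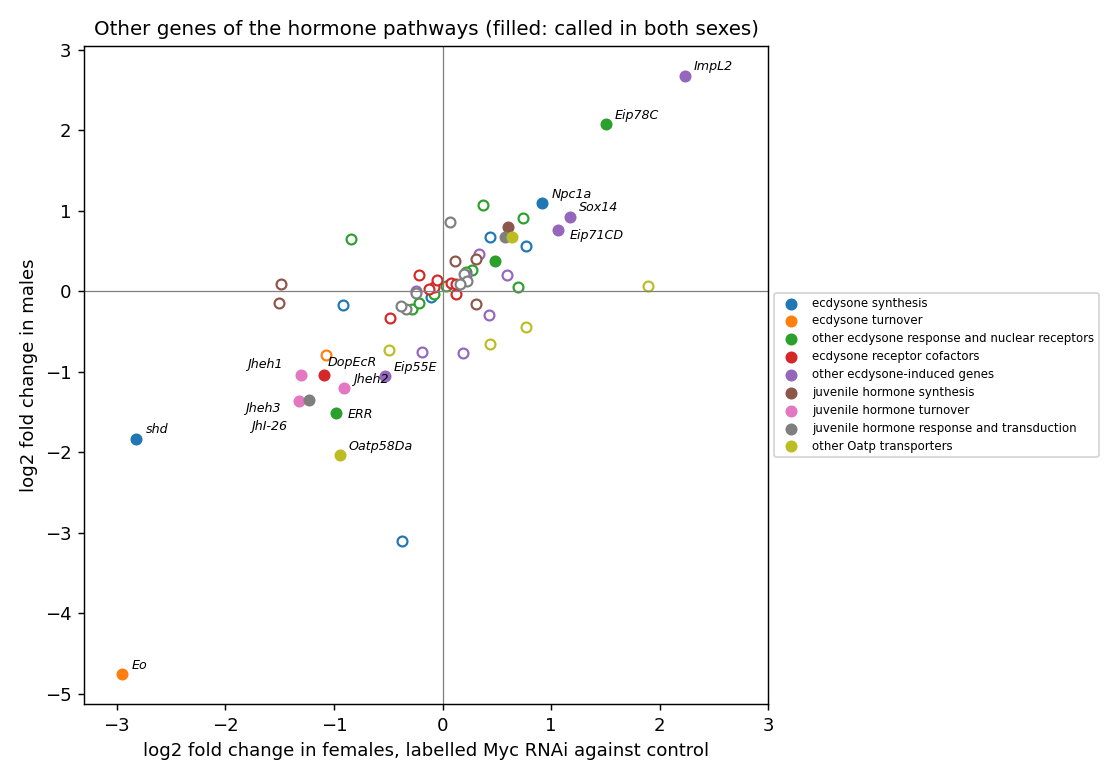
Log2 fold change in females (x axis) and in males (y axis) of the other tested genes of the hormone pathways, coloured by list; filled points passed the test in both sexes and the larger of these are named. Eo and shd lie at the lower left with the 3 Jheh genes nearer the centre, and ImpL2 and Eip78C at the upper right; the 2 axes share no library.

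Other nuclear receptor genes of the ecdysone cascade showed calls in both directions. Of 13 tested 2 rose and 1 fell in females, and 3 rose and 1 fell in males, with medians of 0.21 and 0.24. The shares over all tested genes were 18.5% higher and 17.6% lower in females, and 21.7% and 17.7% in males. No result about the list is read from its counts. Eip78C, an ecdysone-induced receptor related to Eip75B, was at 2.07, 2.37, 2.45 and 4.68 CPM in female controls and at 7.57, 9.39, 6.84 and 8.98 CPM in females labelled Myc RNAi, a 2.83-fold rise (SE 0.25 on the log2 scale, edgeR adjusted p = 0.000199). In males Eip78C rose from 2.85, 3.20, 4.47 and 3.05 CPM to 18.1, 11.3, 16.1 and 11.7 CPM (log2 fold change 2.07 with SE 0.25, edgeR adjusted p = 6.23e-06). ERR, the estrogen-related receptor gene that promotes carbohydrate metabolism, fell from 103.3 ± 10.5 to 52.4 ± 5.16 CPM in females, and in males from 123.9 ± 9.69 to 43.4 ± 1.88 CPM (−0.98 and −1.51, SE 0.11 in each; edgeR adjusted p = 5.4e-06 and 3.96e-08). Hr4 rose in males (1.07, SE 0.31, edgeR adjusted p = 0.0114). Hr96, a receptor involved in lipid and xenobiotic responses, rose in both (0.49 and 0.38), calls that ended without replicate 2 or 4 in females and in 13 of 16 left-out fits in males. Eip93F and Hnf4, the most abundant that did not pass, were at 0.27 and 0.21 in females and 0.27 and 0.24 in males.

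Among all tested genes 18.5% rose and 17.6% fell in females, and 21.7% and 17.7% in males. Of 9 cofactor and alternative receptor genes 1 fell in each sex and none rose. It was DopEcR, a membrane receptor for dopamine and ecdysone, which fell from 8.91 ± 0.786 to 4.18 ± 0.707 CPM in females, and in males from 5.50 ± 1.26 to 2.68 ± 0.600 CPM (log2 fold change −1.09 and −1.04, SE 0.20 in each; edgeR adjusted p = 0.000408 and 0.000571). The most abundant genes of that list, the chaperone genes Hsp83 and Hsc70-4, were at −0.22 and −0.49 in females and 0.20 and −0.33 in males and did not pass. Among other ecdysone-induced genes 4 of 11 rose and 1 fell in females, and 4 rose and 2 fell in males. Beside the shares over all tested genes, nothing is read from the counts of either list. ImpL2, a secreted antagonist of insulin-like peptides, had 13.8, 7.25, 10.5 and 19.2 CPM in female controls and 60.9, 59.2, 48.9 and 68.8 CPM in females labelled Myc RNAi (2.23, SE 0.25, edgeR adjusted p = 5.85e-06). ImpL2 in males was at 22.6, 35.4, 31.0 and 33.8 CPM in male controls and at 212.4, 148.0, 239.0 and 184.1 CPM in the other genotype (2.67, SE 0.25, edgeR adjusted p = 4.93e-07). Sox14 rose in both sexes (1.17 and 0.92), Eip63F-1 rose in females (0.59), and Eip55E, the cystathionine gamma-lyase gene, fell in both (−0.53 and −1.05). The female value of Eip55E was −0.08 with total-count scaling. ImpL3, the lactate dehydrogenase gene, fell in males (−0.76), a call that ended with total-count scaling (−0.26, edgeR adjusted p = 0.222).

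Genes named for a response to juvenile hormone also went both ways. Of 9 tested 1 rose and 2 fell in females, and 2 rose and 1 fell in males. Of all tested genes 18.5% rose and 17.6% fell in females, and 21.7% and 17.7% in males, so these counts are no result. JhI-26 fell from 4.31, 5.93, 4.78 and 4.11 CPM to 2.18, 1.92, 2.58 and 1.43 CPM in females, and in males from 9.48, 6.33, 6.01 and 5.78 CPM to 3.63, 2.15, 2.001 and 3.01 CPM, with no overlap (log2 fold change −1.23 and −1.35, SE 0.25 in each; edgeR adjusted p = 0.00103 and 0.000371). Chd64, a calponin-like protein found at a juvenile hormone response element, rose in both (0.57 and 0.67, SE 0.13 in each). Fkbp39, its partner there, rose in males (0.85, SE 0.28, edgeR adjusted p = 0.0207), a call that ended without replicate 5, 6 or 15. JhI-1 was called lower in females (−0.33, edgeR adjusted p = 0.0428), with 9 of 16 left-out fits ending the call, and SREBP, the lipid regulator, was at 0.16 and 0.09 without passing.

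Genes with the most similar profile over the 16 libraries were sought for Oatp74D and gce, by the root mean square distance between centred log2 CPM values. The 3 nearest to Oatp74D were CG15766, CG7912 and CG14820, at distances of 0.288, 0.321 and 0.358, where the median over all other tested genes was 0.828. CG7912 had means of 50.8 and 20.7 CPM in the control and the other females, and 12.6 and 11.5 CPM in the male groups in the same order. Nearest to gce were FucTC, CG7084 and CG1304, at 0.287, 0.341 and 0.355 beside a median of 0.988. FucTC had means of 35.8, 16.4, 10.1 and 6.501 CPM in the same order of groups. These distances describe the shape across libraries that share sex, genotype and scaling.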

How the data were processed

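Counts per gene were analysed for 16 midgut libraries. The authors deposited whole-number read counts, not normalized, in 1 table; per the labels' protocols, poly(A) RNA was used for directional libraries, and per the submitters' processing notes the dm6 build, TopHat2 2.0.11 and featureCounts were used. The sources used here do not give the annotation, strand setting or treatment of multiply mapped reads. Of 16680 symbols, 12504 matched a current and 3992 an older reference symbol. Coordinates and exon lengths come from the Ensembl BDGP6 annotation, which has dm6 coordinates.

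edgeR 4.0.16 (R 4.3.3) was run with filterByExpr (9314 genes kept), TMM scaling and 1 mean per group over all 16 libraries, with Benjamini-Hochberg adjustment over all tested genes and a threshold of 0.05. CPM uses TMM factors (0.691 to 1.23). Profile distances used a pseudocount of 0.5 CPM. On simulated data for the female comparison, 64 of 93 genes changed by 1 and 95 of 107 changed by 2 on the log2 scale were called, with 6 of 9114 unchanged genes. Few genes were changed in the simulation and the rest had equal means in all groups. It therefore does not cover the scaling shift between genotypes seen in these data. Alternatives were RLE factors, total-count scaling, DESeq2 1.42.0, no filter, 1 sex at a time, and each library left out. The members, gene lists and tests were chosen with earlier results of these data known. From each list up to 4 called genes with the lowest p and up to 2 uncalled genes with the highest CPM could be named; jhamt, Cyp6g2, phm, spok, CR44429, CR44961, CG45075, Actn, Jhe and Jhedup were named after their values were seen. One gene of the juvenile hormone synthesis list is not reported here. Libraries are separate pools, so p-values measure the spread between pools.

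The lists were 9 pathway lists and 9 marker lists. Of the latter, called members (higher and lower in females, then in males) were 4, 3, 4 and 3 of 11 for enterocytes, 10, 0, 6 and 0 of 10 tested for stem cells and enteroblasts, 1, 1, 2 and 1 of 11 for enteroendocrine cells, 1, 0, 1 and 0 of 12 for visceral muscle, 0, 1, 0 and 0 of 6 for fat body, 0, 0, 1 and 0 of 5 for haemocytes, and 0, 1, 0 and 2 of 7 for Malpighian tubules. Ovary and testis germline lists had 2 tested genes each, with 1 called higher in males in each. In the same order, the shares over all tested genes were 18.5%, 17.6%, 21.7% and 17.7%.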

Additional observations from a re-analysis of the deposited data

Results flagged for a closer look

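Among the 40 sets of 4 libraries (10 genes in 4 groups), 2 held a library far from the others of its group, and chance alone gives about 1 in 20. Oatp74D had its lowest value among females labelled Myc RNAi, 2.20 CPM in replicate 11, apart from the other 3 at 2.88 to 2.99 CPM. Hr38 had its highest value among male controls, 0.387 CPM in replicate 6, where the other 3 were at 0.300 to 0.311 CPM, on 11 reads.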

How the results depend on the processing

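No paired analysis was possible because the groups share no replicate number. Total-count scaling moved the median of all genes to 0.43 in females and 0.52 in males. Under it 3488 genes were higher and 672 lower in females and 4460 and 776 in males, against 1727, 1635, 2025 and 1646 with TMM. The members lower in females were then 1 instead of 2, and signs turned for Eip75B (0.13 in females, 0.40 in males), Met (0.14 and 0.29), Oatp74D in males (0.18) and JhI-1 in females (0.097). With 1 library left out, the members higher in females numbered 0 to 3 (0 without replicate 2, 1 without 10) and those higher in males 1 to 4 (1 without 5), and 2 with no filter. The members lower numbered 2 to 3 in females, and 2 in males throughout. Genes called for the interaction numbered 57 with total-count scaling, 320 with DESeq2, 59 with no filter and 36 to 131 with 1 library left out, against 100. The members called for it remained 0 in number. Values near 0 changed sign: the EcR interaction was 0.0094 with RLE factors, 0.012 with DESeq2 and 0.015 with no filter. With 1 library left out, the interaction ran from −0.22 to 0.15 for EcR, −0.014 to 0.13 for usp and −0.26 to 0.0073 for Met, and the genotype effect from −0.21 to 0.20 for br in females, −0.20 to 0.079 for Eip75B in males and −0.49 to 0.45 for Hr38 in males. The cause of these shifts was not tested. Of 577 refitted values of the members 522 kept direction and side of the threshold. Depth limits Hr38, br, the untested synthesis genes and the sizes of the falls of shd and Eo.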

Other observations

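Genes of hormone synthesis that are best known from endocrine glands had reads in some libraries of a group and almost none in others, and they are named because of these values. The juvenile hormone acid methyltransferase gene jhamt had 200, 93, 0 and 16 reads in female controls, 31, 170, 20 and 7 in male controls, 51, 1, 223 and 1 in females labelled Myc RNAi and 6, 0, 97 and 264 in males labelled Myc RNAi. Cyp6g2, of the same list, had 446, 393, 15 and 53 reads in female controls and 138, 25, 518 and 40 in females labelled Myc RNAi, so its high libraries were the ones in which jhamt was high. In the male groups Cyp6g2 had 151, 386, 56 and 90 and then 50, 48, 265 and 466 reads. The ecdysone synthesis gene phm had 55 of its 56 reads in females labelled Myc RNAi in replicate 11, where spok, another gene of that pathway, had all 54 of its reads. No explanation of this was tested.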
